A study of Mus musculus with 10 samples.

Results

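The genes that build and crosslink elastic fibres were examined in RNA-seq libraries of the mouse anterior fontanelle (AF), the soft gap between the frontal and parietal bones, taken at embryonic day E18.5. The 10 genes were chosen by name for what their proteins do, by a rule with no threshold on a measured value, though with earlier results of these data known: Eln, Fbn1, Fbn2, Mfap4, Mfap5, Emilin1, Fbln2, Fbln5, Lox and Loxl1. All 10 were among the 23080 genes of the deposited table, and all 10 passed the filter on low counts that left 16267 genes for testing. The label WT was on 5 libraries and the label NCC Fgfr2 KO on the other 5, where NCC stands for neural crest cell. The embryos labelled KO were Wnt1-Cre; Fgfr2 fl/fl: Cre recombinase, driven by Wnt1 regulatory sequence in the neural crest and so in its descendants, deletes a floxed part of the FGF receptor gene Fgfr2. For the other group the labels say only WT, whereas the study's own plots of these libraries mark the controls as Fgfr2 fl/fl, without Cre. The Cre transgene and the deletion come together in the KO-labelled group, so their effects cannot be told apart. The excised piece held suture connective tissue and bone but no skin or brain, so each library mixes cells of neural crest origin with cells that Wnt1-Cre does not reach.

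Elastic fibres let a tissue stretch and recoil. Tropoelastin, the product of Eln, is laid down on a scaffold of fibrillin microfibrils and becomes insoluble when lysyl oxidases oxidise its lysines and neighbouring chains crosslink. Fibulins help to bring tropoelastin and the lysyl oxidases together at the microfibril, and loss of elastic fibre genes is a known cause of cutis laxa and of disorders of the aorta and ligaments. Sutures and fontanelles are the fibrous joints at which the skull bones move against each other at birth.

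Totals ran from 21814198 to 28515434 estimated counts in the WT-labelled libraries and from 20774667 to 25748619 in the KO-labelled libraries, and 1 ribosomal RNA gene took 18.6% to 33.5% of them. Fgfr2 went against its label. It was at 176 to 235 CPM (each gene's count relative to the library total, scaled by TMM factors) in the 5 WT-labelled libraries and at 273 to 357 CPM in the 5 KO-labelled libraries. A count over the whole gene also takes in exons outside a deleted part and so does not check the deletion, and the groups are called by their labels throughout. Osteoblast and tendon-like marker genes were present in every library, while the markers of epidermis summed to 11.5 to 27.9 CPM. The study describes these libraries as 5 littermate pairs, but the labels give each library only a group and a replicate number. They do not say which embryos shared a litter. The main tests therefore leave that pairing unused, and the p-values measure the spread between these libraries.

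Of the 10 elastic fibre genes, 4 were higher in the KO-labelled libraries at an unadjusted p under 0.05 by edgeR's quasi-likelihood test: the fibulins Fbln5 and Fbln2, the fibrillin Fbn2 and the microfibril-associated gene Mfap4. Over all genes tested, 3.68% were higher by the same rule, and 0 members were lower by it. After Benjamini-Hochberg adjustment over all 16267 genes, 0 of the 10 members were under 0.05, and 3 genes in all (0.0184%) were. With DESeq2's Wald test 0 members were under 0.05 after adjustment, against 0.538% of the genes it tested, and its adjusted p-values were nearer to that threshold than edgeR's, at 0.0567 for Fbln2, 0.0669 for Fbln5 and 0.0932 for Fbn2. By the same test 4 members were higher at an unadjusted p under 0.05, beside 3.48% of all genes with a p. The elastin gene Eln, both lysyl oxidases and Emilin1 had fold changes between 0.985 and 1.06. The median log2 fold change was 0.24 over the 10 members and 0.00073 over all genes tested. In bulk tissue, fewer cells of a type and less RNA per cell cannot be told apart.

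**Figure D1:**
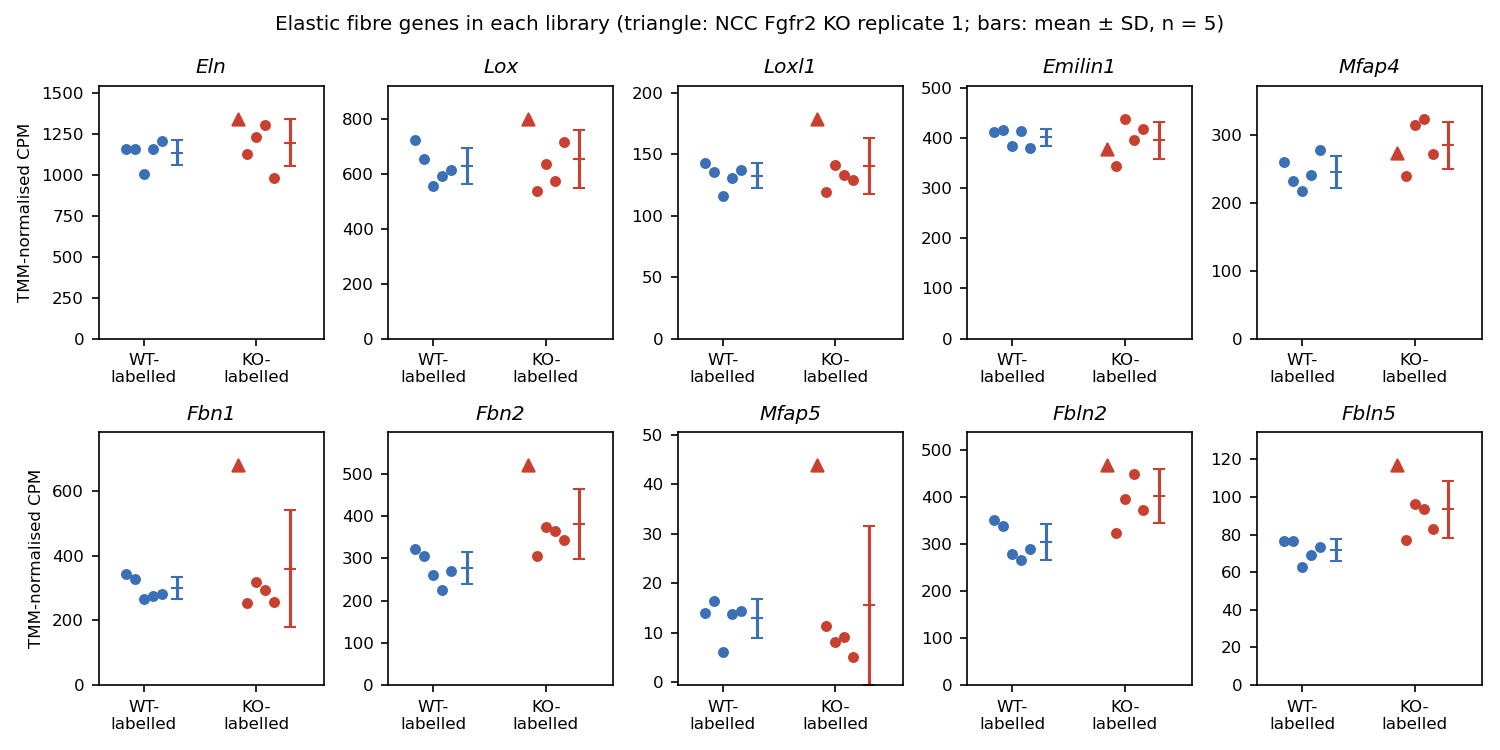
TMM-normalised CPM of the 10 elastic fibre genes in each of 5 WT-labelled (blue) and 5 KO-labelled (red) libraries, with the mean ± SD of each group beside its points. The triangle is the library labelled NCC Fgfr2 KO replicate 1, which lies far above the others for Fbn1 (681 CPM) and Mfap5 (43.9 CPM); for Fbln5 the lowest KO-labelled library (77.3 CPM) lies just above the highest WT-labelled library (76.6 CPM).

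The library labelled NCC Fgfr2 KO replicate 1 stood apart in this gene set: it was the highest of the 10 libraries for 8 of the 10 members, all but Mfap4 and Emilin1. Markers of hypodermal and fascia fibroblasts were high in the same library. Pi16 was at 76.6 CPM there against at most 19.6 CPM in the other 9, Clec3b at 45.2 against at most 13.8, and Dpp4 at 22.5 against at most 4.74. All 9 markers of that list together summed to 1295 CPM there, to 893 to 1112 CPM in the WT-labelled libraries and to 822 to 1048 CPM in the other KO-labelled libraries. Markers of skeletal muscle were also high in it, at 963 CPM summed, but they were at 922 CPM in WT-labelled replicate 2 too and at most 192 CPM in the rest. Smooth muscle genes were highest in it as well, with Acta2 at 93.6 CPM against at most 66.2 CPM in the other 9 and Myh11 at 51.5 against at most 37.6, although all 12 markers of smooth muscle and pericytes summed to 952 CPM there and to 932 CPM in the next library. The part of these cells in the members' levels was not tested.

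Fbln5 encodes fibulin-5, which binds tropoelastin, integrins and LOXL1 and guides elastic fibre assembly. Its gene lies on the minus strand of chromosome 12 (GRCm38, chr12:101746565-101819055), and its main coding transcript has 11 exons and 5829 bases. The 250 bases upstream of the 5′-most RefSeq start of Fbln5 are shown because this was the member with the smallest p and the only one whose groups did not overlap. They lie at chr12:101819120-101819369 of GRCm38.p6, are written 5′ to 3′ on the gene's strand and hold no annotated exon base. Capitals mark the letters GGGCGG or their reverse complement, the core of an SP1 site.
Fbln5 upstream: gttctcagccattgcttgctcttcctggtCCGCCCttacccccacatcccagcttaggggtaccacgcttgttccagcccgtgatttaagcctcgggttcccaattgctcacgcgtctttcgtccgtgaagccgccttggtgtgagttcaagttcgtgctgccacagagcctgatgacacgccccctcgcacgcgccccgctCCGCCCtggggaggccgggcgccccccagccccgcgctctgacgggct
The window holds 2 such matches, and 32.7% of all 32851 RefSeq windows of this length hold at least 1 on either strand. Its GC content was 65.2%, against a median of 52.4% over all windows. On either strand the window held no match to the TEAD letters GGAATG (found in 12.6% of all windows), the SMAD letters CAGACA (17.1%), the E-box CAGCTG (13%) or the RUNX letters TGTGGT (14.0%). Nor did it hold the TCF/LEF letters CTTTGAT (3.2%), the AP-1 letters TGACTCA (4.46%), the TATA box TATAAA (12.4%) or the SRF motif (0.061%). A second RefSeq start of Fbln5, downstream of the first, has a window of its own that touches an exon and is not printed: its GC content was 49.6%, and it held 0 SP1 and 1 SMAD match. A match is a description of letters and not of binding.

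Fbln5 levels were 76.3, 76.6, 62.9, 69.4 and 73.5 CPM in WT-labelled replicates 1 to 5 and 117, 77.3, 96.1, 93.8 and 82.8 CPM in KO-labelled replicates 1 to 5. Every KO-labelled library was above every WT-labelled library, but KO-labelled replicate 2 cleared the highest WT-labelled library by less than 1 CPM. Over all genes tested, 0.781% had groups that did not overlap with the KO-labelled group higher. The mean went from 71.7 ± 5.72 to 93.4 ± 15.2 CPM (SD, n = 5), a 1.30-fold difference (log2 fold change 0.38, SE 0.103; edgeR's unadjusted p = 0.00327, adjusted p = 0.411). The exact permutation test gave p = 0.00794 (two-sided), the smallest that 5 against 5 allows. Without KO-labelled replicate 1 the log2 fold change was 0.30 (edgeR's unadjusted p = 0.00351). When libraries were scaled by their total alone, Fbln5 groups overlapped and no member was left with groups apart.

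Fbln2 encodes fibulin-2, a microfibril-associated fibulin that is made by mesenchyme of developing vessels, heart cushions and skeleton. The gene is on chromosome 6 (chr6:91212455-91272540). Its levels were 351, 338, 279, 265 and 289 CPM in WT-labelled replicates 1 to 5 and 466, 324, 396, 449 and 372 CPM in the KO-labelled ones. KO-labelled replicate 2 lay within the WT-labelled range and the other 4 lay above it. The mean went from 304 ± 37.8 to 401 ± 57.9 CPM (SD, n = 5), 1.32-fold (log2 fold change 0.40, SE 0.111; edgeR's unadjusted p = 0.00398, adjusted p = 0.411; exact permutation p = 0.0238). It was 0.35 without KO-labelled replicate 1 (edgeR's unadjusted p = 0.00953). The fibulins of the set had a median log2 fold change of 0.39.

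Fbn2 encodes fibrillin-2, the fibrillin that predominates in embryonic microfibrils, and Fbn1 encodes fibrillin-1, which forms microfibrils from the embryo to the adult. Fbn2 (chr18:58008623-58210487) was at 323, 305, 261, 225 and 270.0 CPM in the WT-labelled libraries and at 519.9, 305, 374, 364 and 343 CPM in the KO-labelled libraries. Only KO-labelled replicate 2 fell inside the WT-labelled range. The mean went from 277 ± 38.5 to 381 ± 82.0 CPM (SD, n = 5), with all libraries the largest fold change among the members at 1.38-fold (log2 fold change 0.46, SE 0.140; edgeR's unadjusted p = 0.00651, adjusted p = 0.454; exact permutation p = 0.0159). It was 0.33 without KO-labelled replicate 1 (edgeR's unadjusted p = 0.00921). Without that library Fbln2 (0.35) was higher and Mfap5 (-0.61) was larger in size.

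Fbn1 (chr2:125300594-125507993) showed another pattern. It was at 343, 329, 268, 277 and 283 CPM in WT-labelled replicates 1 to 5 and at 681, 254, 319, 293 and 257 CPM in KO-labelled replicates 1 to 5. KO-labelled replicate 1 was far above every other library, and of the other KO-labelled libraries replicates 2 and 5 lay below the WT-labelled range. Its log2 fold change was 0.27 (SE 0.247; edgeR's adjusted p = 0.843; exact permutation p = 0.817), and it was -0.09 without that library. The KO-labelled mean was 361 ± 181 CPM with it (SD, n = 5) and 281 ± 31.4 CPM without it (SD, n = 4), beside 300.2 ± 33.96 CPM in the WT-labelled group. The noncoding gene Gm9913 shares 2442 exon bases with Fbn1 on the opposite strand, and the strand setting of the counting is not given in the sources used here.

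Mfap5 encodes MAGP-2, a small glycoprotein bound to fibrillin microfibrils, and was the least abundant member. It was at 13.9, 16.3, 6.17, 13.7 and 14.3 CPM in the WT-labelled libraries and at 43.9, 11.4, 8.17, 9.02 and 5.03 CPM in the KO-labelled libraries. The direction of its difference turned with KO-labelled replicate 1: the log2 fold change was 0.26 with it (SE 0.513; edgeR's adjusted p = 0.941) and -0.61 without it (SE 0.279; edgeR's unadjusted p = 0.0536). The KO-labelled mean was 15.5 ± 16.03 CPM with that library and 8.40 ± 2.62 CPM without it, against 12.9 ± 3.90 CPM in the WT-labelled group. WT-labelled replicate 3, the lowest WT-labelled library for Mfap5, was also the lowest of its group for Pi16 (4.25 CPM), Clec3b (2.13 CPM) and Dpp4 (2.38 CPM), though the 9 markers of that list summed to 927 CPM there and to less, 893 CPM, in WT-labelled replicate 2.

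Mfap4 encodes a fibrinogen-like glycoprotein that binds fibrillin, tropoelastin and collagen. It was at 261, 232, 218, 242 and 278 CPM in the WT-labelled libraries and at 273, 239.8, 316, 324 and 273 CPM in the KO-labelled libraries. The groups overlapped, with KO-labelled replicates 3 and 4 above the WT-labelled range. Its log2 fold change of 0.21 (SE 0.0934) had an unadjusted p of 0.0429 and an adjusted p of 0.656 by edgeR's quasi-likelihood test, and an exact permutation p of 0.0794. The unadjusted p of Mfap4 was 0.05 or more in 6 of the 10 fits that left out 1 library (WT-labelled replicates 2, 3 and 4 and KO-labelled replicates 3, 4 and 5), with a highest value of 0.0891, and the log2 fold change was 0.24 without KO-labelled replicate 1. The p was also 0.200 when libraries were scaled by their total alone and 0.0660 with the replicate number as a block, both by edgeR's quasi-likelihood test.

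Emilin1 encodes a glycoprotein at the interface of elastin core and microfibril that also restrains the processing of pro-TGF-beta. It was at 412, 416, 385, 414 and 380.2 CPM in the WT-labelled libraries and at 379, 344, 438, 397 and 419 CPM in the KO-labelled ones. The means of 402 ± 17.4 and 395 ± 36.3 CPM (SD, n = 5) were nearly equal. The 95% interval of its log2 fold change ran from -0.18 to 0.13 in edgeR's fit.

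Eln was the most abundant member, at 1158, 1159, 1003, 1158 and 1209 CPM in the WT-labelled libraries and at 1343, 1126, 1233, 1305 and 983 CPM in the KO-labelled libraries. KO-labelled replicates 1, 3 and 4 lay above the WT-labelled range, replicate 2 lay within it and replicate 5 lay below it. Means were 1138 ± 78.3 and 1198 ± 146 CPM (SD, n = 5), and the log2 fold change was 0.07 with a 95% interval from -0.13 to 0.28 (edgeR's adjusted p = 0.888; exact permutation p = 0.492). A fold change beyond 1.21 or below 0.915 lay outside that interval.

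Lox encodes lysyl oxidase, which crosslinks collagen as well as elastin, and Loxl1 encodes the family member that binds fibulin-5 and acts mainly on elastin. Lox was at 723, 654, 554, 591 and 614 CPM in the WT-labelled libraries and at 799, 537, 635, 575 and 715 CPM in the KO-labelled libraries. Loxl1 was at 143, 136, 116, 131 and 137 CPM in the former and at 179, 119.6, 141, 134 and 129 CPM in the latter. For both enzymes the groups overlapped widely. The log2 fold change was 0.06 for Lox (95% interval -0.19 to 0.30) and 0.08 for Loxl1 (95% interval -0.14 to 0.31), with adjusted p-values of 0.941 and 0.881 by edgeR's quasi-likelihood test. Without KO-labelled replicate 1 the values were -0.019 and -0.0084.

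**Figure D2:**
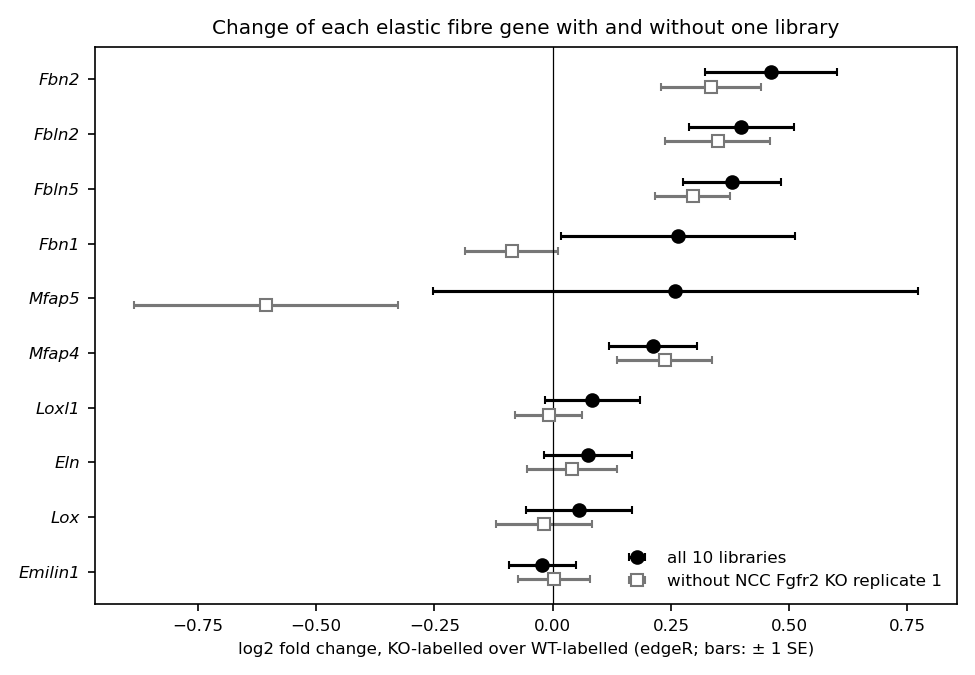
Log2 fold change of each member (KO-labelled over WT-labelled, edgeR, bars ± 1 SE) with all 10 libraries (filled circles) and without NCC Fgfr2 KO replicate 1 (open squares). Fbn2, Fbln2, Fbln5 and Mfap4 keep their side of 0, at 0.33, 0.35, 0.30 and 0.24 without that library, while Fbn1 moves from 0.27 to -0.09 and Mfap5 from 0.26 to -0.61.

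The plot of fold changes with and without KO-labelled replicate 1 separates the members into those that turned on that library and those that did not. Of the 10 members, 9 had a log2 fold change above 0 with all libraries and 6 without that library, and the median over members went from 0.24 to 0.021. The 4 genes at an unadjusted p under 0.05 by edgeR's quasi-likelihood test were the same 4 in both, and without that library 4.13% of all genes tested were higher by that rule.

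Divided by the length of the main coding transcript, levels spanned from 295 CPM per kb for Eln to 8.56 CPM per kb for Mfap5 in the WT-labelled group. Mfap4 followed Eln at 143 ± 13.9, then Lox at 132 ± 13.7, Emilin1 at 104 ± 4.52, Fbln2 at 63.6 ± 7.91 and Loxl1 at 40.2 ± 3.11 CPM per kb (SD, n = 5). Fbn1 and Fbn2, whose transcripts of 11971 and 11041 bases are the longest, were level at 25.1 ± 2.84 and 25.1 ± 3.48 CPM per kb. Fbln5, at 12.3 ± 0.982 CPM per kb, and Mfap5 were the lowest. Among neighbours in this order, Mfap4 and Lox overlapped in range (126 to 162 and 117 to 153 CPM per kb), as did Fbn1 and Fbn2, and Fbln5 and Mfap5 overlapped at 10.8 CPM per kb. With the length of all annotated exons merged in place of the main transcript, Eln (140.5 CPM per kb) was close to Lox (131) and Mfap4 (128), Lox came before Mfap4, and Mfap5 was at 3.59 CPM per kb, so the lead of Eln depended on the transcript length used. In the KO-labelled group Fbn2 (34.5 CPM per kb) came before Fbn1 (30.1 CPM per kb), and the order of the others was the same.

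**Figure D3:**
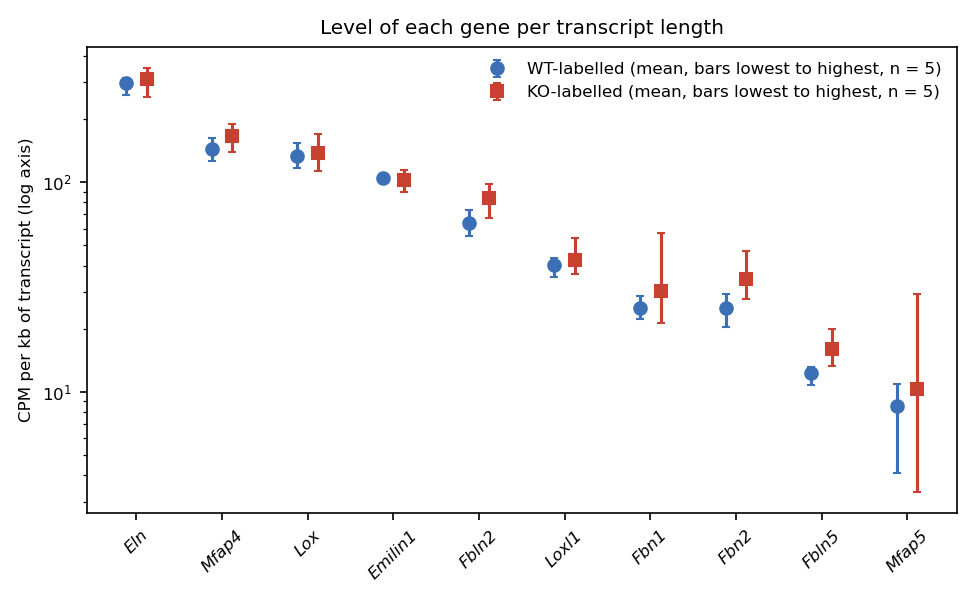
CPM per kb of main coding transcript (log axis) for each member in the WT-labelled (blue) and KO-labelled (red) groups, mean with bars from the lowest to the highest of 5 libraries. Eln is the highest at 295 and Mfap5 the lowest at 8.56 CPM per kb in the WT-labelled group, and the long bars of Fbn1 and Mfap5 in the KO-labelled group come from 1 library.

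The make-up of the set within a library was compared by ratios, which do not depend on how libraries are scaled. These comparisons were chosen after the values above were known. Against Eln, Fbln5 was higher in the KO-labelled libraries by 0.30 on the log2 scale, and the groups did not overlap (exact permutation p = 0.00794). The log2 ratio to Eln differed by 0.38 for Fbn2 (exact permutation p = 0.0159) and by 0.33 for Fbln2 (exact permutation p = 0.0238). Those of Mfap4 (0.14), Fbn1 (0.093), Mfap5 (-0.18), Emilin1 (-0.094), Lox (-0.022) and Loxl1 (0.0050) had exact permutation p-values from 0.167 to 0.944. No adjustment over the 9 ratios was made. Without KO-labelled replicate 1 the differences for Fbln5, Fbn2 and Fbln2 were 0.26, 0.31 and 0.31, and without KO-labelled replicate 5 that of Fbln2 was 0.28 with an exact permutation p of 0.0556.

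Fbln5 and Loxl1, whose products bind each other, were among the ratios whose groups did not overlap. Fbln5 CPM divided by Loxl1 CPM was 0.535, 0.564, 0.543, 0.53 and 0.536 in WT-labelled replicates 1 to 5 and 0.653, 0.646, 0.679, 0.702 and 0.643 in KO-labelled replicates 1 to 5. The ratio in KO-labelled replicate 1, in which both genes were at their highest, lay among those of the other KO-labelled libraries. Group means were 0.541 ± 0.0133 and 0.665 ± 0.0255 (SD, n = 5), a difference of 0.30 on the log2 scale (exact permutation p = 0.00794, the smallest possible, not adjusted over the ratios and shared by every ratio without overlap). Of the 45 ratios between members, 9 (20%) had groups that did not overlap, beside 1.48% of the ratios between all genes tested. This count follows in large part from the differences of single genes given above, since each of these 9 set Fbln5, Fbln2 or Fbn2 against Eln, Emilin1, Lox or Loxl1, with the former higher in the KO-labelled libraries. Fbn2 over Loxl1, for instance, ranged from 1.72 to 2.26 in the WT-labelled and from 2.55 to 2.91 in the KO-labelled libraries, and Emilin1 over Fbln2 ranged from 1.18 to 1.56 and from 0.813 to 1.13.

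Across the 10 libraries, with group means removed, most pairs of members had a positive correlation. Of the 45 pairs, 42 (93.3%) had a Pearson r above 0 and 19 had an adjusted p under 0.05 (permutation test with 100000 permutations, two-sided, adjusted over the 45 pairs), with a median r of 0.615. The permutations shuffled the centred values across both groups, whose spread differed for some members. These p-values are therefore approximate and may be too small. Over all pairs of genes tested, 49.8% had an r above 0 and the median was -0.0023. An r of at least 0.69, the lowest among the 19, was found in 44.4% of the member pairs and in 3.07% of all pairs. Fbln5 and Loxl1 were the closest pair, with r = 0.967 and Spearman's rho = 0.927 (permutation p = 2e-05; adjusted p = 0.0009 for r and 0.00473 for rho). Leaving out the 2 libraries farthest from the median of Fbln5 left r at 0.918, and leaving out KO-labelled replicate 1 left it at 0.939, with group means removed again over the libraries kept. Fbn2 and Fbln2 had r = 0.875 and rho = 0.915 (permutation test, adjusted p = 0.00414 and 0.00518), with r = 0.866 without the 2 farthest libraries. The fibrillins Fbn1 and Fbn2 had r = 0.895 and rho = 0.915 (permutation test, adjusted p = 0.00414 and 0.00518) and r = 0.814 without them.

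Many of the 19 called pairs had lower values without a few libraries. Without the 2 libraries farthest from the median of the first gene, r fell to 0.298 for Fbln5 and Lox and 0.400 for Mfap5 and Fbln5. It was 0.401 for Fbn1 and Lox, 0.469 for Fbn2 and Lox, and 0.482 for Eln and Mfap5. Mfap5, Fbn2 and Fbln2 had r of 0.517, 0.538 and 0.544 with Loxl1. Apart from these and Lox with Loxl1, given next, the called pairs kept an r of 0.670 or more. Lox and Loxl1 had r = 0.808 and rho = 0.782 (permutation test, adjusted p = 0.0167 and 0.0454), and r was 0.538 without the 2 farthest libraries. Fbn1 and Mfap5 had r = 0.866 and rho = 0.709 (permutation test, adjusted p = 0.0206 and 0.0591), and r was 0.415 without KO-labelled replicate 1. Eln was close to Fbln5 (r = 0.787, rho = 0.721, adjusted p = 0.0214 and 0.0581 by the permutation test; r = 0.840 without the 2 farthest libraries). With Lox, Eln had r = 0.198, a value that turned on single libraries, at 0.589 without the 2 farthest and -0.13 without KO-labelled replicate 1. Emilin1 and Mfap4 were in none of the 19 pairs, which were called with all 10 libraries only. Without KO-labelled replicate 1, r of Mfap4 went from 0.459 to 0.822 with Fbln5 and from 0.364 to 0.814 with Loxl1, and r of Emilin1 went from 0.192 to 0.640 with Loxl1 and from 0.384 to 0.678 with Lox. The median r over the 45 pairs was 0.587 without that library.

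**Figure D4:**
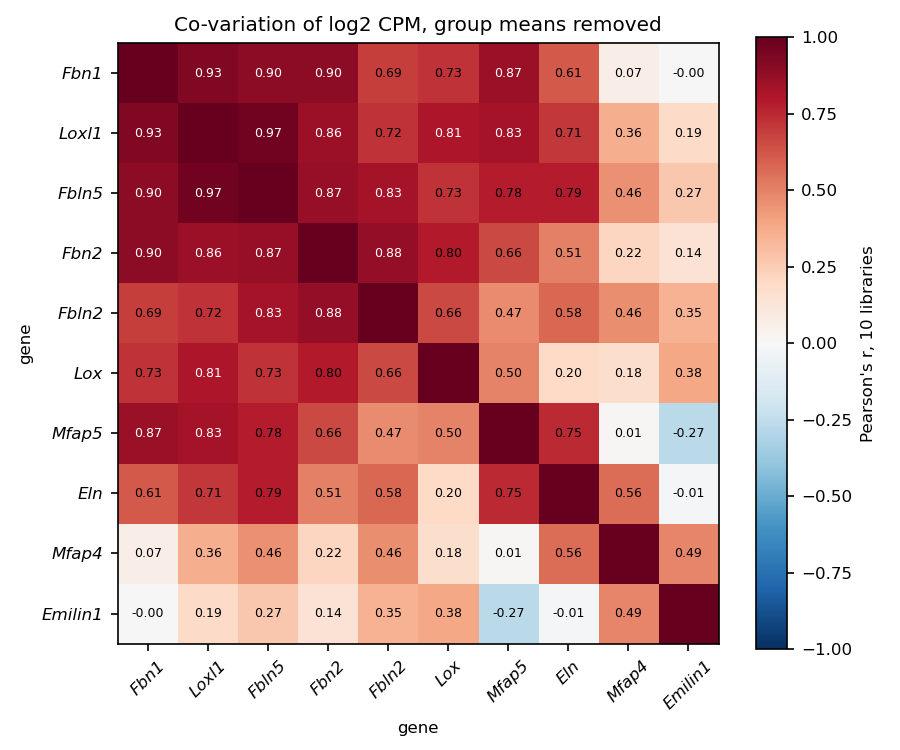
Pearson's r between members over 10 libraries (log2 CPM with the group means removed), with red for positive and blue for negative values. Fbn1, Loxl1, Fbln5, Fbn2 and Fbln2 form a block of high values with a peak of 0.967 between Fbln5 and Loxl1. Within it, r with Loxl1 was 0.538 for Fbn2 and 0.544 for Fbln2 without the 2 libraries farthest from that gene's median. The Mfap4 and Emilin1 lines are pale with all 10 libraries, though r of Mfap4 with Fbln5 was 0.822 without KO-labelled replicate 1.

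Among genes outside the set with a mean of at least 1 CPM, those most like Eln over the 10 libraries by Pearson r of log2 CPM were Gnasas1 (0.971), Tmem41a (0.952) and Ctdp1 (0.941), and with group means removed these were 0.970, 0.949 and 0.938. Most like Fbln5 were Fnbp1 (0.971), Dpep1 (0.971) and Chrd (0.956), at 0.938, 0.941 and 0.898 with group means removed. These are descriptions of 10 libraries that share 2 groups, and they were picked as the highest of all genes.

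Other genes of the same machinery were counted by list, and few passed an unadjusted test. Of 24 other microfibril and EMILIN genes, 1 was higher at an unadjusted p under 0.05 by edgeR's quasi-likelihood test and 0 were lower, with a median log2 fold change of 0.038. That gene was Ltbp2, whose product binds fibrillin-1 and fibulin-5, at 157 ± 18.8 and 204 ± 25.0 CPM (SD, n = 5; log2 fold change 0.37, SE 0.1001; edgeR's adjusted p = 0.410). Of 6 other fibulins and hemicentins 5 could be tested, with 0 in either direction and a median of -0.063. With libraries left out in turn that median ranged from -0.087 to 0.094. Of 10 tested genes among other lysyl oxidases and genes of their activation, 0 were higher and 3 lower, with a median of -0.14. Over all genes tested 3.82% were lower by that rule.

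In that last list were Pcolce2, a procollagen C-proteinase enhancer (9.80 ± 0.554 to 6.58 ± 1.09 CPM; log2 fold change -0.57, edgeR's adjusted p = 0.184), and Slc31a1, the copper importer on which copper enzymes such as the lysyl oxidases depend (54.4 ± 2.17 to 44.2 ± 3.58 CPM; log2 fold change -0.30, edgeR's adjusted p = 0.187). Both had groups that did not overlap, as 0.701% of all genes did with the KO-labelled group lower. Loxl4, another lysyl oxidase, had a log2 fold change of -0.38 (edgeR's adjusted p = 0.509). Among 12 collagen crosslinking enzymes, 2 were lower at an unadjusted p under 0.05 by edgeR's quasi-likelihood test. They were the lysyl hydroxylase gene Plod2 (-0.21) and the transglutaminase gene Tgm2 (-0.20). The median of the list was -0.074, and it ranged from -0.12 to 0.0062 with libraries left out in turn. Among 17 elastin receptors, elastases and their inhibitors, 3 were lower by the same rule, namely Neu1 (-0.22), Itgb3 (-0.30) and Timp3 (-0.17), and the median was -0.066. The 10 other genes of cutis laxa had 0 in either direction and a median of -0.053. Without KO-labelled replicate 1 the counts at an unadjusted p under 0.05 changed by 1 gene in 4 of these lists: Efemp1 (-0.06 with that library and -0.60 without it), Adamtsl5 (-0.24 and -0.32) and Tll1 (-0.28 and -0.47) were then lower, and Timp3 no longer was. In these pathway lists 0 genes had an adjusted p under 0.05 by edgeR's quasi-likelihood test.

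Markers of the cell types in the tissue were compared in the same way, and 0 of them had an adjusted p under 0.05 by edgeR's quasi-likelihood test. Of 14 osteoblast markers 9 were lower at an unadjusted p under 0.05 by edgeR's quasi-likelihood test and 0 of 14 had a log2 fold change above 0 (median -0.29). The 3 with the smallest p-values were Dmp1 (-0.58), Alpl (-0.38) and Ibsp (-0.58), and of these Alpl had groups that did not overlap. The largest log2 fold change was that of Mepe (-0.83). Of 9 tendon-like markers of the fontanelle 5 were higher and 0 lower by the same rule, and 6 of 9 had a log2 fold change above 0 (median 0.31). The smallest p-values were those of Chodl (0.95), Matn4 (0.64) and Tnmd (0.58), whose groups did not overlap, while Thbs4 (-0.56), Egr1 (-0.22) and Kera (-0.14) had values below 0. With KO-labelled replicate 1 left out 4 were higher, since Scx (0.35 with that library and 0.32 without it) had an unadjusted p of 0.0821 by edgeR's quasi-likelihood test. Col2a1 (0.88) was the 1 of 8 tested cartilage markers that was higher, with groups that did not overlap, and 0 were lower. Over all genes tested, 3.68% were higher and 3.82% lower at an unadjusted p under 0.05 by edgeR's quasi-likelihood test. Groups did not overlap for 0.781% with the KO-labelled group higher and for 0.701% with it lower. The 12 markers of smooth muscle and pericytes, cells that make much elastin in vessels, had 0 in either direction and a median of 0.027. With libraries left out in turn that median ranged from -0.024 to 0.071. These markers summed to 825 to 863 CPM in the WT-labelled and to 766 to 952 CPM in the KO-labelled libraries, the highest being replicate 1. The 9 markers of hypodermal and fascia fibroblasts had 0 in either direction and a median of 0.037, which was -0.20 with 4 lower when KO-labelled replicate 1 was left out. The tendon-like list summed to 464 to 509 CPM in the WT-labelled and to 518 to 720 CPM in the KO-labelled libraries, ranges that did not overlap. Fmod, whose own groups overlapped, was much of that sum, with means of 257 and 286 CPM. The osteoblast list, mostly Col1a1, summed to 66548 to 78188 CPM in the WT-labelled and to 54476.5 to 78875 CPM in the KO-labelled libraries, ranges that overlapped. The part of a shift between bone and tendon-like tissue in the levels of Fbln5, Fbln2 and Fbn2 was not tested.

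**Figure D5:**
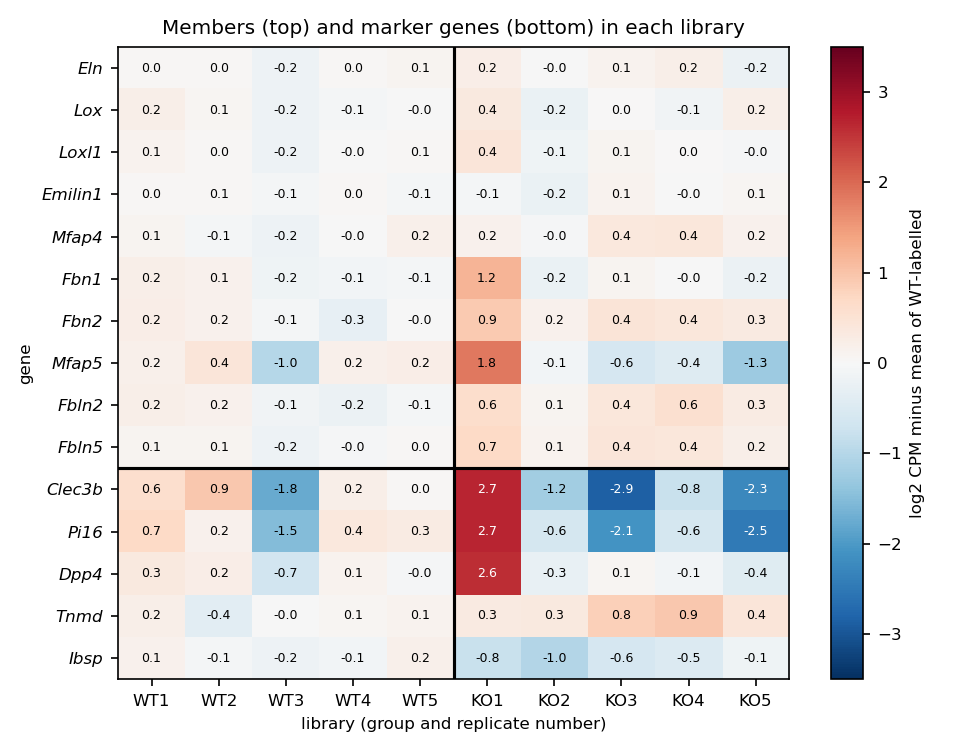
Log2 CPM of the 10 members (top) and of 5 marker genes (bottom) in each library, less the mean of the WT-labelled group, with red above and blue below that mean. The fascia fibroblast markers Clec3b, Pi16 and Dpp4 are high in KO1 together with Fbn1 and Mfap5, while Fbln5, Fbln2 and Fbn2 are above 0 in all 5 KO-labelled libraries, as the tendon-like marker Tnmd is; the bone marker Ibsp is below 0 in them.

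The map of members and markers shows 2 patterns side by side. All 5 of Fbn1, Mfap5, Fbln5, Fbln2 and Fbn2 were highest in KO-labelled replicate 1, as Pi16, Clec3b and Dpp4 were, but Fbn1 and Mfap5 lay on both sides of or below the WT-labelled mean in the other KO-labelled libraries. Fbln5, Fbln2 and Fbn2 were above the WT-labelled mean in every KO-labelled library, with KO-labelled replicate 2 the lowest for all 3 genes.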

How the data were processed

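Total RNA of the excised AF was sequenced from a stranded kit as 50-base single reads. The authors deposited 1 table of estimated counts per gene, many of them not whole numbers. The submitters' processing notes name mm10 and Partek; aligner, counter and strand setting are not given in the sources used here. Counts were rounded, genes without enough counts were left out with filterByExpr (6813 of 23080), and KO-labelled and WT-labelled libraries were compared with edgeR 4.0.16 (TMM, quasi-likelihood test, no covariate) in R 4.3.3, with Benjamini-Hochberg adjustment over the 16267 genes tested and a threshold of 0.05. CPM are TMM-scaled, and logs add a prior count of 0.5. The common biological coefficient of variation was 18.9%. Single values were compared with exact permutation tests over 252 groupings, two-sided. Alternatives were DESeq2 1.42.0, limma 3.58.1, other scalings, filters and covariates, and leaving out each library. The steps were tested on simulated data. Gene models came from GENCODE M21 on GRCm38, upstream sequences from RefSeq, which held windows for 4 of the 10 members; 3 of these 4 had windows wholly in annotated exons and were not printed. No 2 libraries of a group agreed within sampling noise. Every member is named; of the pathway lists, genes at an unadjusted p under 0.05 or with groups that did not overlap are named (at most 6 per list, and at most 3 per cell type list). The members and lists were chosen with earlier results of these data known. The result of 1 further gene list is not reported here.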

Additional observations from a re-analysis of the deposited data

Results flagged for a closer look

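Within each group of 5 libraries, the gap between the highest or lowest library and its nearest neighbour was divided by the range of the group, for each member. This share was above the critical value of Dixon's test in 4 of 20 groups, where about 5% would be by chance. The 20 groups are not independent, since the members vary together across the same libraries. All 4 came from KO-labelled replicate 1 or WT-labelled replicate 3. For Fbn1 in the KO-labelled group it was 0.846, and for Mfap5 in the KO-labelled group it was 0.837, in both cases because KO-labelled replicate 1 was far above the others. For Eln in the WT-labelled group it was 0.751, and for Mfap5 in the WT-labelled group it was 0.745, in both cases because WT-labelled replicate 3 was far below the others. Eln was at 1003 CPM in that library and at 1158 to 1209 CPM in the other WT-labelled libraries, and Mfap5 was at 6.17 CPM against 13.7 to 16.3 CPM.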

How the results depend on the processing

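No member had an adjusted p under 0.05 in any alternative, nor under 0.1 in the reported edgeR fit, whereas DESeq2 gave 0.0567 for Fbln2, 0.0669 for Fbln5 and 0.0932 for Fbn2, and 3 to 4 members were higher at an unadjusted p under 0.05. Fbln5, Fbln2, Fbn2, Mfap4 and Eln kept their direction in all alternatives. With libraries left out in turn, log2 fold changes ranged from 0.040 to 0.138 for Eln, -0.087 to 0.37 for Fbn1 and -0.61 to 0.48 for Mfap5. They ranged from -0.053 to 0.030 for Emilin1, -0.019 to 0.12 for Lox and -0.0084 to 0.14 for Loxl1. The log2 ratios to Eln ranged from -0.12 to 0.17 for Fbn1, -0.63 to 0.040 for Mfap5, -0.13 to 0.052 for Lox and -0.042 to 0.053 for Loxl1, and that of Emilin1 was -0.19 (exact permutation p = 0.0476) without KO-labelled replicate 5. With limma voom, Mfap5 was at -0.24 and Emilin1 at 0.0067. Deviations of 1 of 5 same-numbered pairs correlated above 0.1, which cannot tell whether replicate numbers mark the littermate pairs. With the number as a replicate block Mfap5 was at -0.11 and 3 members were higher at an unadjusted p under 0.05. In that fit 1 gene in all had an adjusted p under 0.05. That count of all genes, 3 in the reported fit, was 1 with scaling by total counts, 95 with DESeq2, 1 with Xist as a covariate for sex, and 1 to 6 with libraries left out. The count of all genes higher at an unadjusted p was 258 with scaling by total counts and 386 to 807 with libraries left out. Members whose groups did not overlap numbered 0 with scaling by total counts (1.19% of all genes in either direction) and 1 to 3 with libraries left out (1.91% to 2.93%). Of the called pairs, 18 were called with library totals less ribosomal RNA. The causes of these changes were not tested. Depth limits Mfap5 most, with 114 to 945 counts.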

Other observations

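The other cell type lists gave few differences between the labelled groups by edgeR's quasi-likelihood test. At an unadjusted p under 0.05, 1 of 8 dermal fibroblast markers was lower in the KO-labelled libraries (Ptprz1, log2 fold change -0.29, edgeR's adjusted p = 0.367). So were 1 of 7 tested epidermal markers (Epcam, -0.65, edgeR's adjusted p = 0.571) and 1 of 10 markers of meninges and dura (Slc47a1, -0.40, edgeR's adjusted p = 0.544). Slc47a1 had groups that did not overlap. When KO-labelled replicate 1 was left out, 2 dermal markers, 1 marker of macrophages and osteoclasts and 1 skeletal muscle marker (Ckm, -2.41) were lower by that rule. With all libraries the 8 tested skeletal muscle markers had 0 in either direction. Their median log2 fold change was -0.13, and it was -1.51 without KO-labelled replicate 1. Markers of endothelium, of macrophages and osteoclasts, of erythroid cells and of neurons and glia had 0 in either direction, with median log2 fold changes of 0.019, -0.14, -0.082 and 0.52. With libraries left out in turn these ranged from -0.023 to 0.060, -0.18 to -0.042, -0.23 to 0.15 and 0.17 to 0.73. The median of neurons and glia was 0.17 without KO-labelled replicate 2, that of macrophages and osteoclasts was -0.042 without WT-labelled replicate 4, and that of erythroid cells was 0.15 without WT-labelled replicate 5. The markers of neurons and glia summed to 74.1 to 171 CPM in the WT-labelled libraries and to 73.8 to 545 CPM in the KO-labelled libraries.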
